A study of Mus musculus with 8 samples.

Results

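Colony-stimulating factors and interleukin-3 (IL-3) are the cytokines that keep myeloid progenitors alive and drive them to divide and mature. The genes described here encode their 7 receptor chains: Csf1r, Csf2ra, Csf2rb, Csf2rb2, Csf3r, Il3ra and Il5ra. They were chosen by name, as a receptor family, with earlier results of these data known. All 7 were measured among the 18193 genes of the array table. The samples were 4 groups of 2 Affymetrix arrays each, 8 arrays in all. All cells were sorted CD45.1+ cells, called non-transformed in the labels, from CD45.1+ hosts given a mixture of CD45.1+ marrow and as many CD45.2+ marrow cells. In leukemic mice the CD45.2+ cells carried BCR-ABL, a fusion kinase known from chronic myeloid leukaemia, under SCL-tTA, a driver known to act in blood stem and progenitor cells, and tetracycline was removed from the water to induce it. Normal mice were chimeras that lacked BCR-ABL, and whether their donors carried SCL-tTA is not stated. Cells were sorted 4 weeks after the removal. HSC means the CD150+ CD48- part of the KSL gate (Kit+, Sca-1+, lineage negative), and KSL the gate as a whole. The groups were leukemic-mouse HSC, normal-mouse HSC, leukemic-mouse KSL and normal-mouse KSL, where the first word is the kind of mouse and not of the sorted cells. The labels give neither host age nor conditioning, nor whether the 2 arrays of a group came from separate mice. P-values therefore measure the spread between these samples, which may be technical.

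The receptors work as sets of chains. GM-CSF, IL-3 and IL-5 each have an alpha chain of their own (Csf2ra, Il3ra and Il5ra) that binds the ligand, and these alpha chains pair with the common beta chain Csf2rb, which carries the signal through the kinase JAK2 to STAT5. Mice have a further beta chain, Csf2rb2, which serves IL-3 alone. Csf3r, the receptor for G-CSF, signals as a pair of identical chains through JAK kinases and STAT3 and drives neutrophil production. Csf1r is a receptor tyrosine kinase for CSF-1 and IL-34 and is the defining receptor of monocytes and macrophages. Long-term stem cells as a rule carry less of the myeloid receptors than the progenitors downstream of them.

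Values are log2 expression values on the authors' normalized scale, with a floor at 3.32. The 7 genes were read by 11 probe sets with a single gene symbol, none of which was at the floor on any array. Csf1r had 3 such probe sets, Csf2ra and Csf2rb had 2 each, and the other 4 genes had 1. Each gene is given by its brightest probe set on average. Levels of different genes were not compared, because probe sets differ in brightness. A further probe set annotated to both beta chains was left out. Csf2rb and Csf2rb2 lie side by side on chromosome 15 in GRCm38.p6, with only Mir7676-1 between them, and are close copies, and whether their probes tell them apart was not tested. In bulk samples like these, fewer cells of a type and less RNA per cell cannot be told apart.

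Across genes, replicate arrays correlated with r of 0.957 in leukemic-mouse HSC, 0.965 in normal-mouse HSC, 0.994 in leukemic-mouse KSL and 0.988 in normal-mouse KSL, lower in both HSC groups. Genes are not independent replicates. Replicate 1 of normal-mouse HSC and replicate 1 of normal-mouse KSL had a male pattern, with the X-inactivation transcript Xist at 5.79 and 3.67 and the Y-linked Eif2s3y at 9.23 and 9.35. On the other 6 arrays Xist was between 11.6 and 12.0. Markers of the sort were read as labelled in that 6 long-term HSC genes averaged 8.62 and 8.70 in leukemic-mouse HSC, against 6.10 and 5.83 in leukemic-mouse KSL, and 9.30 and 9.52 in normal-mouse HSC, against 6.57 and 6.77 in normal-mouse KSL.

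Promoter windows, from 250 bases before to 50 after the start site, were used from RefSeq (GRCm38.p6) for 5 of the 7 genes. These were Csf2ra, Csf2rb2, Csf3r, Il3ra and Il5ra. Csf1r and Csf2rb were not part of this step, which does not show that RefSeq lacks a window for them. The windows of 3 genes with unlike patterns over the groups are shown 5′ to 3′ on the gene's strand: Csf2rb2 on chr15:78305672-78305971 (minus strand), Csf3r on chr4:126024409-126024708 (plus strand) and Il5ra on chr6:106748988-106749287 (minus strand). Capitals mark matches on either strand to GAGGAA (an ETS core that PU.1, the main myeloid ETS factor, can use), TTCNNNGAA (STAT type) and AGATAA, a core known to be read by factors such as Gata1.
Csf2rb2: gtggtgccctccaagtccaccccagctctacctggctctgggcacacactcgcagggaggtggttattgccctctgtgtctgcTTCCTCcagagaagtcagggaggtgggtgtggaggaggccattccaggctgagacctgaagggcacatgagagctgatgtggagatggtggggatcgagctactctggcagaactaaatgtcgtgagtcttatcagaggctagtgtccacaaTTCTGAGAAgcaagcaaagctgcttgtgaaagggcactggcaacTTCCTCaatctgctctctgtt
Csf3r: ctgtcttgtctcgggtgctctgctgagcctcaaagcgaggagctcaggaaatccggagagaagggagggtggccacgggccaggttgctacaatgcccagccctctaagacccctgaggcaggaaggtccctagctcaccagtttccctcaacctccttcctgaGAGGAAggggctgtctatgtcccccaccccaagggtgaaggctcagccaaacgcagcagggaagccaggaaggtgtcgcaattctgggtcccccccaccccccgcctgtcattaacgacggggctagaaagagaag
Il5ra: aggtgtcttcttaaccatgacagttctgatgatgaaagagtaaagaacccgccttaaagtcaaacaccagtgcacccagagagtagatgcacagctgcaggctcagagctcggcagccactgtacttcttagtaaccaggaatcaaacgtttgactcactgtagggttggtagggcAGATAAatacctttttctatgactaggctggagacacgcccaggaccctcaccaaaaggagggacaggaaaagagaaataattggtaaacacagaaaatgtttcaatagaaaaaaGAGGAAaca
TGTGGT (RUNX type) and TTGCNNAA (C/EBP type) were searched as well and have no match in these 3 windows. GAGGAA starts at base -167 and base 30 of Csf2rb2, base -86 of Csf3r and base 42 of Il5ra, counted from the start site. The STAT match of Csf2rb2 starts at base -15, and the AGATAA match of Il5ra at base -74. Csf2ra, not shown, has GAGGAA matches starting at -14 and -8, and Il3ra, not shown, has a TTGCNNAA match at -134. No match overlaps another motif's. Of all 32851 windows of this length in the table, 28.28% hold GAGGAA, 8.3% TTCNNNGAA, 11.18% AGATAA, 16.76% TGTGGT and 10.8% TTGCNNAA. These matches describe letters and are not evidence of binding.

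**Figure D1:**
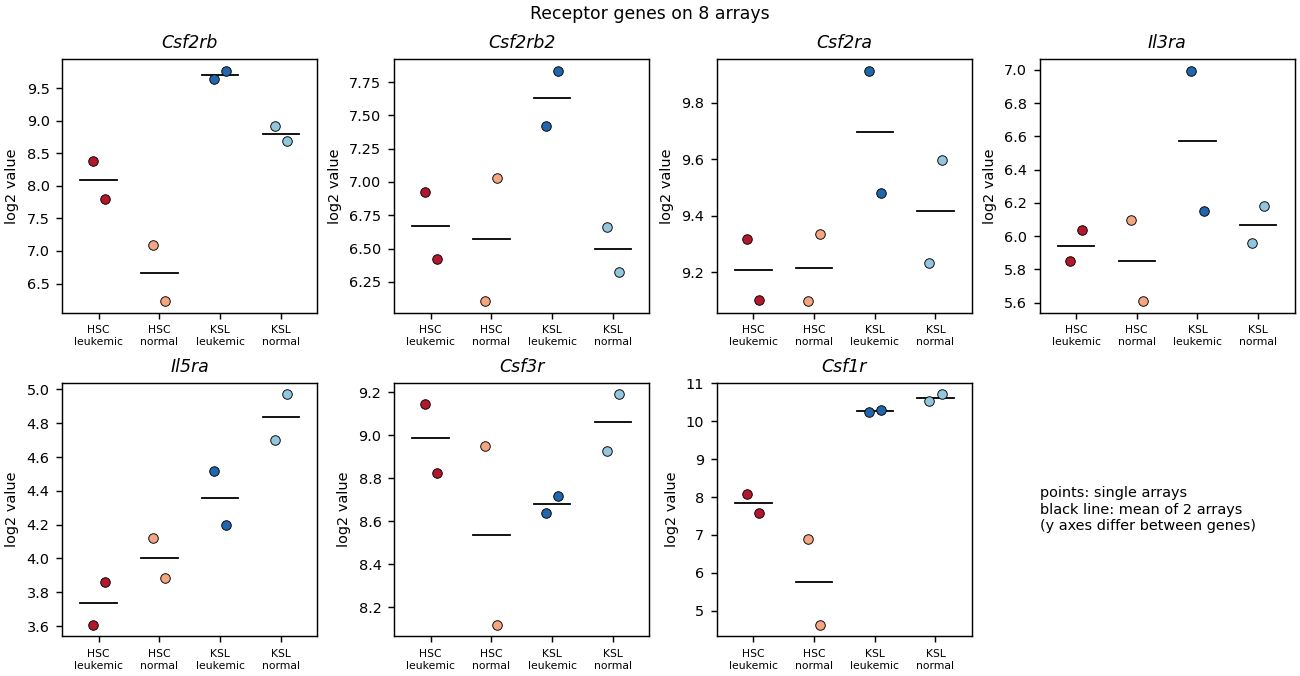
Log2 values (y axis, a scale of its own for each gene) of the 7 receptor genes in the 4 groups (x axis). Points are single arrays and black lines the means of 2 arrays. Csf2rb and Csf1r are lowest in normal-mouse HSC, and within HSC and within KSL both Csf2rb arrays of leukemic mice lie above those of normal mice.

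The first question was how the receptors of non-transformed HSC differed where BCR-ABL cells were present in the same host. The signal-carrying beta chain Csf2rb and the CSF-1 receptor Csf1r had the largest differences, both higher in leukemic-mouse HSC with no overlap of arrays, but no member passed the test over all genes. The IL-3 and GM-CSF alpha chains and the IL-3 beta chain had differences near 0. Limma passed 0 of 7 members at an adjusted p under 0.05, where 0.0989% of all genes passed. At an unadjusted p under 0.05 there were 2 of 7, against 13.8% of all genes. The median difference of the 7 was 0.10, against 0 over all genes.

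Csf2rb was at 8.38 and 7.80 in leukemic-mouse HSC, against 7.09 and 6.23 in normal-mouse HSC. Both leukemic arrays thus lay above both normal ones. The log2 difference was 1.43 ± 0.35 (SE, n = 2 arrays per group, 95% interval 0.51 to 2.35), a 2.70-fold higher value, with an unadjusted p = 0.0108 and adjusted p = 0.218 in limma. The other Csf2rb probe set read 7.63 and 7.28 in leukemic-mouse HSC, against 6.503 and 6.90 in normal-mouse HSC, with no overlap either and a smaller difference of 0.76 ± 0.28 (adjusted p = 0.38 over all probe sets).

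Csf1r was at 8.08 and 7.58 in leukemic-mouse HSC, against 6.89 and 4.63 in normal-mouse HSC. The normal arrays differed from each other by more than the group means did. The difference was 2.07 ± 0.76 (95% interval 0.08 to 4.07, adjusted p = 0.349 in limma). It was 3.20 without replicate 1 of normal-mouse HSC, an array with the male pattern, and 0.94 without replicate 2 of that group. A single array thus moved it by more than 1.5 times in either direction. Each of these fits leaves 1 array of normal-mouse HSC, which gives no spread of its own. The other Csf1r probe sets gave smaller differences. One was at 5.86 and 5.60 in leukemic-mouse HSC against 5.21 and 5.29 in normal-mouse HSC (0.48 ± 0.11, adjusted p = 0.231 over all probe sets). The last was at 5.81 and 5.28 against 5.71 and 5.14, which overlap (0.12 ± 0.37).

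Csf3r was at 9.15 and 8.83 in leukemic-mouse HSC, against 8.95 and 8.12 in normal-mouse HSC. These overlap, with a difference of 0.45 (95% interval -0.36 to 1.26), which was 0.868 without replicate 1 and 0.033 without replicate 2 of normal-mouse HSC. Il5ra, a low signal near the floor, was at 3.61 and 3.86 against 4.12 and 3.89 in normal mice. Its leukemic arrays lay below the normal ones by a narrow margin, with a difference of -0.27 ± 0.18 (adjusted p = 0.6).

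For the 3 remaining chains the arrays of leukemic and normal HSC overlapped. The GM-CSF alpha chain Csf2ra was at 9.32 and 9.10 in leukemic-mouse HSC and at 9.10 and 9.33 in normal-mouse HSC, a difference of -0.01 (95% interval -0.57 to 0.56). The IL-3 alpha chain Il3ra was at 5.85 and 6.04 in leukemic and at 6.10 and 5.61 in normal mice, a difference of 0.09 (interval -0.79 to 0.97). Csf2rb2 was at 6.93 and 6.42 in leukemic and at 6.10 and 7.03 in normal mice, a difference of 0.10 (interval -0.92 to 1.12). These intervals do not show that the levels were alike. In all, 2 members lay above and 1 below without overlap in leukemic-mouse HSC. Over all genes 16% lay above and 16.7% below in that way.

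**Figure D2:**
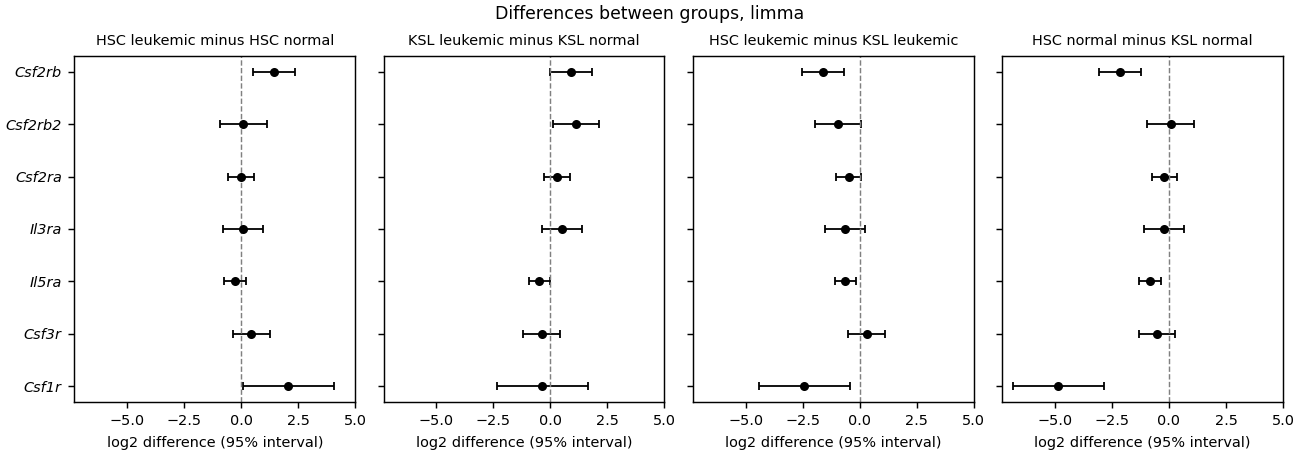
Log2 differences (x axis) of the 7 receptor genes (y axis) in 4 comparisons, with 95% intervals from limma over all 8 arrays. Intervals that leave out 0 without adjustment are those of Csf2rb and Csf1r in HSC, Csf2rb2 and Il5ra in KSL, and Csf2rb, Csf1r and Il5ra in both HSC against KSL panels.

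Other transcripts and quality readings also differed between the HSC groups, some higher and some lower in leukemic mice, while monocyte and macrophage list means overlapped. Granulocyte-monocyte progenitor markers (Mpo, Elane, Ctsg, Prtn3 and Ms4a3) were higher without overlap for 5 of 5 genes, with a list mean of 9.32 and 9.76 in leukemic-mouse HSC against 7.31 and 7.98 in normal-mouse HSC. Mature neutrophil markers were higher without overlap for 4 of 10 and lower for 1, with list means of 8.08 and 7.77 against 7.67 and 5.39, so replicate 2 of normal-mouse HSC was low for them as it was for Csf1r. Monocyte and macrophage markers had list means of 5.18 and 5.10 against 5.08 and 5.27, and 1 of 10 was higher and 3 lower without overlap. Mast cell and basophil markers were higher without overlap for 3 of 5 measured genes and lower for 0, with list means of 4.84 and 6.09 in leukemic-mouse HSC against 4.52 and 4.39 in normal-mouse HSC. Long-term HSC genes were lower without overlap for 4 of 6 and higher for 0, with the list means given above. The 3 prime minus 5 prime difference of Gapdh, a reading of RNA quality, was 1.19 and 1.03 in leukemic-mouse HSC against 0.78 and 0.83 in normal-mouse HSC. That of Tfrc was -0.36 and -0.75 against -2.04 and -1.74. That of Actb lay the other way, at -0.42 and -0.50 against -0.37 and -0.38. No marker of these 5 lists was at the floor on all arrays. The part of these readings in the Csf2rb and Csf1r values was not tested.

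**Figure D3:**
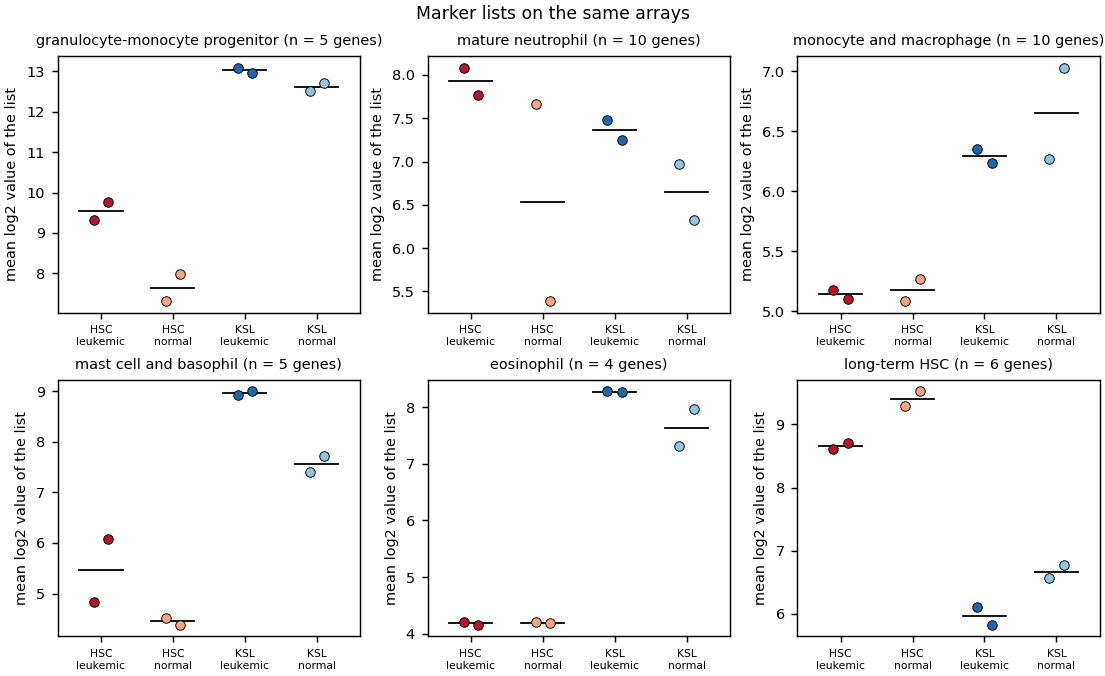
Mean log2 value (y axis) of 6 marker lists on each array (points) in the 4 groups (x axis), with black lines at the group means. Granulocyte-monocyte progenitor markers run from 7.31 in normal-mouse HSC to 13.1 in leukemic-mouse KSL, and eosinophil markers stand near 4.2 on all 4 HSC arrays.

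The same comparison was made in the whole KSL gate. Here both beta chains were higher in leukemic-mouse KSL without overlap, and Il5ra, Csf3r and Csf1r were lower without overlap, again with no member past the test. Limma passed 0 of 7 members, where 0.044% of all genes passed, and 2 of 7 had an unadjusted p under 0.05, against 7.95% of all genes. Without overlap 2 members lay above and 3 below, and the shares over all genes were 20.5% and 24.1%. The median difference of the 7 was 0.28, against 0 over all genes.

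Csf2rb was at 9.65 and 9.77 in leukemic-mouse KSL, against 8.92 and 8.68 in normal-mouse KSL. Replicates here were closer than in HSC, and the groups did not overlap. The difference was 0.91 ± 0.35 (95% interval -0.01 to 1.83, 1.88-fold, adjusted p = 0.638 in limma). The other probe set gave 8.90 and 9.35 against 8.17 and 8.63, a like difference of 0.73 ± 0.28. Csf2rb2 was at 7.42 and 7.84 in leukemic-mouse KSL, against 6.66 and 6.33 in normal-mouse KSL. Its difference of 1.13 ± 0.39 (interval 0.11 to 2.15, adjusted p = 0.585) contrasts in size with the 0.10 in HSC, but the difference between the 2 was -1.03 ± 0.55 and did not pass (adjusted p = 0.677).

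Among the alpha chains, Il5ra was at 4.52 and 4.20 in leukemic-mouse KSL, against 4.70 and 4.97 in normal-mouse KSL, a difference of -0.48 ± 0.18 (adjusted p = 0.626). Its arrays were thus low in leukemic mice in both gates. IL-5 is known for eosinophil growth, and none of the 4 eosinophil markers passed between leukemic and normal mice in HSC or KSL. In HSC they differed in direction, at 0.33 for Prg2, 0.19 for Epx, -0.34 for Siglecf and -0.23 for Ccr3. Siglecf and Ccr3 each had HSC arrays at the floor. In KSL Prg2 was at 11.6 and 11.5 in leukemic-mouse KSL against 10.4 and 11.4 in normal-mouse KSL, and Epx at 9.57 and 9.99 against 7.35 and 8.84. Both were higher without overlap, by 0.68 and 1.69 (adjusted p = 0.762 and 0.535 in limma), the other way from Il5ra. Siglecf was at 8.61 and 8.20 against 8.15 and 8.35, which overlap (0.16). Ccr3 was at or just above the floor on the 4 KSL arrays (-0.008). The part of these markers in the Il5ra values was not tested.

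Il3ra was at 6.996 and 6.15 in leukemic-mouse KSL, against 5.96 and 6.18 in normal-mouse KSL. Only replicate 1 of the leukemic arrays stood out, and the groups overlapped (difference 0.50, interval -0.38 to 1.38). Without that array the difference was 0.080. Csf2ra was at 9.91 and 9.48 against 9.23 and 9.60, which overlap (0.28, interval -0.28 to 0.85).

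Csf3r was at 8.64 and 8.72 in leukemic-mouse KSL, against 8.93 and 9.19 in normal-mouse KSL, a difference of -0.38 ± 0.31 (adjusted p = 0.973). Csf1r was at 10.25 and 10.29 in leukemic-mouse KSL, against 10.53 and 10.71 in normal-mouse KSL, a difference of -0.35 ± 0.76 (adjusted p = 1). Its second probe set, at 8.16 and 8.34 against 8.64 and 8.72, gave -0.43 ± 0.11 (adjusted p = 0.552 over all probe sets). The third overlapped, at 6.91 and 7.28 against 6.73 and 7.41 (0.02). Csf1r arrays of leukemic mice thus lay above in HSC and below in KSL, as those of 3.26% of all genes did. A term for the arrays with a male pattern turned the Csf1r difference in KSL to 0.17.

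Mast cell and basophil markers were higher without overlap for 5 of 5 measured genes in leukemic-mouse KSL, with list means of 8.91 and 8.99 against 7.40 and 7.72 in normal-mouse KSL, and granulocyte-monocyte progenitor markers for 5 of 5, at 13.1 and 13.0 against 12.5 and 12.7. Mast cells and basophils are known to carry both beta chains, and the part of these markers in the beta chain values was not tested. Monocyte and macrophage markers had list means of 6.35 and 6.24 against 6.27 and 7.03. No marker of these 3 lists was at the floor on all 8 arrays.

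Over both gates together, Csf2rb averaged a difference of 1.17 ± 0.25 (interval 0.52 to 1.82, adjusted p = 0.198), and its leukemic arrays lay above the normal ones in HSC and in KSL, as they did for 4.28% of all genes. It kept this direction under all 19 alternatives tried for this average, at 0.96 to 1.44, and passed under none (adjusted p 0.104 to 0.483). Limma passed 0 of 7 members on average, against 0.0824% of all genes, and 2 of 7, Csf2rb and Il5ra, had an unadjusted p under 0.05, against 12.6% of all genes. Il5ra averaged -0.37 ± 0.13 (adjusted p = 0.348). For a difference between the gates in the response to leukaemia, limma passed 0 of 7, against 0.0055% of all genes, and 0 of 7 had an unadjusted p under 0.05, against 9.09%.

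The next comparison set HSC against KSL within each kind of mouse. Csf1r and Csf2rb were lower in HSC than in KSL in both, with wide gaps, and Il5ra was lower by less. The differences of Csf3r and Csf2ra were smaller, between -0.52 and 0.31. In leukemic mice 6 of 7 members lay below in HSC without overlap, against 23.2% of all genes, and 1, Csf3r, above, against 28.2%. In normal mice 3 of 7 lay below without overlap, against 19.3% of all genes, and 0 above, against 24.2%. Limma passed 0 of 7 in leukemic mice, where 5.86% of all genes passed, and 0 of 7 in normal mice, where 1.8% passed. In both, 3 of 7 had an unadjusted p under 0.05, against 23% of all genes in leukemic and 16.2% in normal mice.

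Csf1r averaged 7.83 ± 0.35 in leukemic-mouse HSC and 10.27 ± 0.03 in leukemic-mouse KSL (SD, n = 2 each), a difference of -2.44 ± 0.76 (adjusted p = 0.155 in limma). In normal mice it averaged 5.76 ± 1.60 in HSC and 10.62 ± 0.13 in KSL, a difference of -4.86 ± 0.76, or 29.0-fold (adjusted p = 0.0677). The order of its group means was normal-mouse KSL, leukemic-mouse KSL, leukemic-mouse HSC and normal-mouse HSC. The KSL groups stood far above both HSC groups, while neighbours of the same gate were separated only narrowly or with wide replicate spread. The second Csf1r probe set, with tight replicates, passed over all probe sets in leukemic mice (-2.52 ± 0.11, adjusted p = 0.00906) and in normal mice (-3.43 ± 0.11, adjusted p = 0.00706), and the third did not (-1.55 and -1.65).

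Csf2rb averaged 8.09 ± 0.41 in leukemic-mouse HSC and 9.71 ± 0.09 in leukemic-mouse KSL, a difference of -1.62 ± 0.35 (adjusted p = 0.077). In normal mice it averaged 6.66 ± 0.61 in HSC and 8.80 ± 0.17 in KSL, a difference of -2.14 ± 0.35, or 4.41-fold (adjusted p = 0.0731). The order was leukemic-mouse KSL, normal-mouse KSL, leukemic-mouse HSC and normal-mouse HSC, with no overlap between neighbours. With genes at the floor on any array left out of the test, Csf1r and Csf2rb passed in normal mice (adjusted p = 0.0123 and 0.0207), and Csf2rb in leukemic mice (adjusted p = 0.0301). With only the 4 arrays compared, neither passed in either kind of mouse (adjusted p 0.0756 to 0.238).

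**Figure D4:**
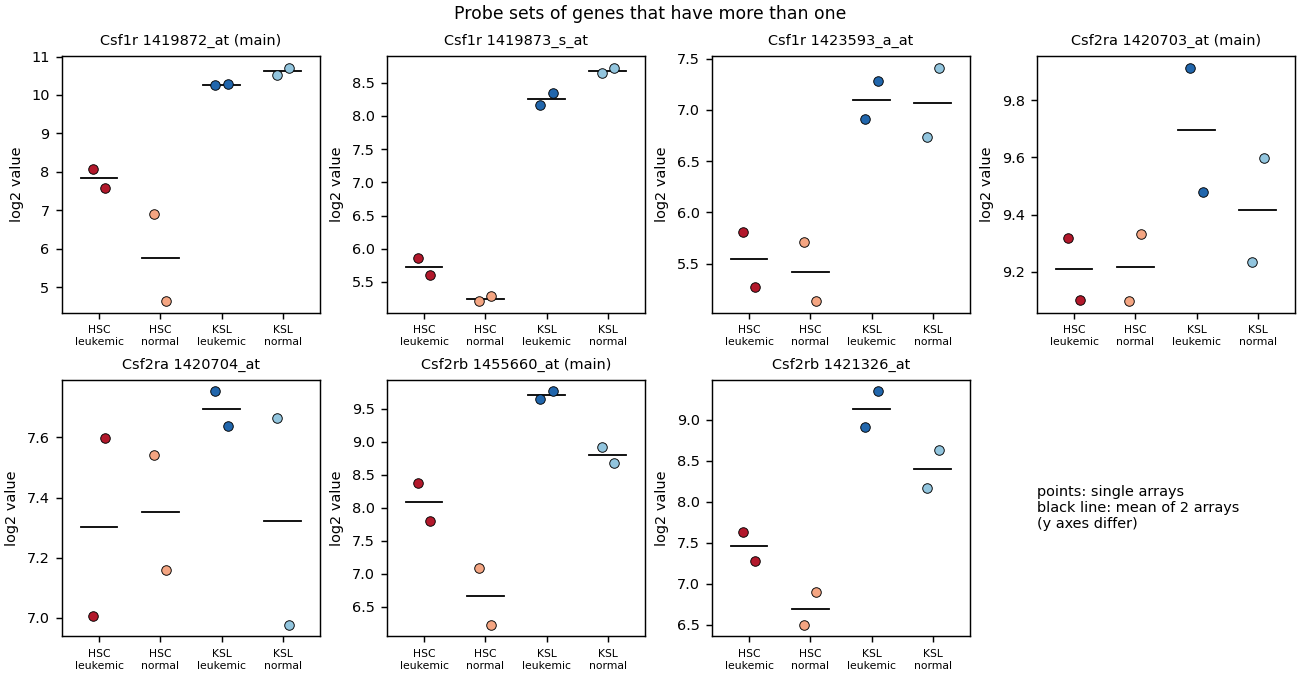
Log2 values (y axis, own scale in each panel) of every probe set of Csf1r, Csf2ra and Csf2rb on single arrays (points), with means of 2 arrays as black lines, by group (x axis). The HSC groups lie below the KSL groups in all 3 Csf1r and both Csf2rb panels, and the replicates of normal-mouse HSC lie farthest apart in the first Csf1r panel, at 6.89 and 4.63.

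Il5ra averaged 3.74 ± 0.18 in leukemic-mouse HSC and 4.36 ± 0.23 in leukemic-mouse KSL, a difference of -0.62 ± 0.18 (adjusted p = 0.134), and 4.00 ± 0.16 in normal-mouse HSC and 4.84 ± 0.19 in normal-mouse KSL, a difference of -0.83 ± 0.18 (adjusted p = 0.122). Eosinophil markers had list means of 4.22 and 4.16 in leukemic-mouse HSC against 8.28 and 8.26 in leukemic-mouse KSL, and of 4.20 and 4.20 in normal-mouse HSC against 7.31 and 7.97 in normal-mouse KSL, and their part in the Il5ra difference was not tested. Csf2rb2 was at -0.96 ± 0.39 in leukemic mice (adjusted p = 0.241), with HSC arrays below KSL arrays, and at 0.07 ± 0.39 in normal mice, where arrays overlapped. Csf3r was at 0.31 ± 0.31 in leukemic and -0.52 ± 0.31 in normal mice. Csf2ra was at -0.49 ± 0.22 and -0.20 ± 0.22, and Il3ra at -0.63 ± 0.34 and -0.21 ± 0.34. None of these passed (adjusted p 0.241 to 1).

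The genes whose values over the 8 arrays were most like those of each member were named by Pearson's r, among 4160 genes with no array at the floor and an SD of at least 0.5. Genes that share a group pattern score high on this measure. For Csf1r these were Fcer1g (r = 0.994), Ap1s2 (0.994) and Tyrobp (0.993), of which Fcer1g and Tyrobp encode signalling adaptors of myeloid and NK receptors. For Csf2rb they were Ccr2 (0.993), the chemokine receptor of inflammatory monocytes, Hp (0.991), which encodes haptoglobin, and Tmem50b (0.9895). Ccr2 was the only 1 of the 10 monocyte and macrophage markers higher without overlap in leukemic-mouse HSC, where 3 were lower. For Il5ra they were the lymphoid zinc finger gene Ikzf3 (0.983), Aknaos (0.954) and Fam117a (0.941). For Il3ra they were Akr1c18 (0.965), Pdcd7 (0.948) and Aaas (0.939), for Csf3r Gm4876 (0.922), Wdpcp (0.922) and Ankrd6 (0.912), and for Csf2rb2 Usp14 (0.878), Asb14 (0.874) and 4930509E16Rik (0.861). Csf2ra varied by less than 1 unit and was not matched. The 8 arrays fall into 4 groups, so these values describe likeness over the groups as much as over single samples.

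Of the ligands, 5 were close to the floor, with group means between 3.38 and 4.25, and Csf1 was at 6.59 to 6.68. None of the 6 (Csf1, Csf2, Csf3, Il3, Il5 and Il34) passed in any of the 6 comparisons. Il34 was at 3.32 and 3.44 in leukemic-mouse HSC against 3.78 and 3.52 in normal-mouse HSC (-0.27), and Csf3, which encodes G-CSF, at 3.63 and 3.91 in leukemic-mouse KSL against 3.76 and 3.40 in normal-mouse KSL. Il5 was higher without overlap in both gates, at 4.00 and 4.38 in leukemic-mouse HSC against 3.94 and 3.77 in normal-mouse HSC, and at 4.17 and 4.34 in leukemic-mouse KSL against 3.93 and 3.78 in normal-mouse KSL. Neither difference passed, at 0.33 and 0.40 (adjusted p = 0.456 and 0.652).

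Of 18 measured genes of signalling just below the receptors, 0 passed in any comparison. In HSC 3 had an unadjusted p under 0.05, 1 higher and 2 lower in leukemic mice, where 13.8% of all genes had one. The higher one, chosen after its value was seen, was Grb2 (0.21 ± 0.06, adjusted p = 0.261). The lower ones were Pik3cd, a catalytic subunit of PI3-kinase (-0.93 ± 0.19, adjusted p = 0.18), and Inpp5d, the lipid phosphatase SHIP1, which restrains cytokine signals (-0.64 ± 0.18, adjusted p = 0.256). Inpp5d was also lower in KSL, at 8.61 and 8.39 in leukemic against 8.87 and 9.07 in normal mice (-0.47 ± 0.18, adjusted p = 0.643). Stat5b, which encodes a main transducer of the beta chains, had -0.37 ± 0.10 in KSL (adjusted p = 0.468).

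Among 10 target genes of STAT5 and STAT3, 0 passed between leukemic and normal mice in HSC or KSL. In HSC 3 were higher and 3 lower at an unadjusted p under 0.05 (13.8% of all genes were under it), and the median of the 10 was 0.25, against 0 over all genes. The feedback inhibitor Socs3 was at 8.49 and 8.88 in leukemic-mouse HSC against 7.11 and 6.87 in normal-mouse HSC, and at 7.32 and 7.35 in leukemic-mouse KSL against 6.27 and 6.17 in normal-mouse KSL. Its arrays were thus higher in leukemic mice in both gates (1.70 ± 0.16 and 1.12 ± 0.16, adjusted p = 0.0819 and 0.215). It was the only one of the 10 to pass in any of the 6 comparisons, being higher in leukemic-mouse HSC than in leukemic-mouse KSL (1.35 ± 0.16, adjusted p = 0.0231). The survival kinase gene Pim1 had 0.63 ± 0.16 in HSC (adjusted p = 0.23) and the survival gene Mcl1 -0.31 ± 0.11 in KSL (adjusted p = 0.611).

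Of 11 measured transcription factors known to act on myeloid receptor genes, 0 passed between leukemic and normal mice. Irf8, a monocyte-lineage factor, was at 6.72 and 7.27 in leukemic-mouse HSC against 5.60 and 5.23 in normal-mouse HSC (1.58 ± 0.24, adjusted p = 0.134). In KSL it lay the other way, at 8.86 and 9.11 in leukemic against 9.81 and 9.94 in normal mice, as Csf1r did. Gata2 had -0.96 ± 0.21 and Gata1, the erythroid and mast cell factor, -1.44 ± 0.32 in KSL (adjusted p = 0.349 and 0.358), and Myb -0.40 ± 0.12 in HSC (adjusted p = 0.279). In leukemic mice 3 were lower in HSC than in KSL, namely Irf8 (-1.99 ± 0.24), Spi1, the gene of PU.1 (-1.80 ± 0.30), and Myb (-0.71 ± 0.12), and 1, Gata2, was higher (2.56 ± 0.21, adjusted p 0.012 to 0.0479 for the 4). Of all genes 5.86% passed in that comparison. In normal mice 1 of the 11 passed, Irf8 (-4.46 ± 0.24, adjusted p = 0.012), and 1.8% of all genes did. Cebpe was not measured by a probe set with a single symbol.

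Of 10 other measured cytokine receptors of stem and progenitor cells, 1 passed between HSC of leukemic and of normal mice, where 0.0989% of all genes did. Il1r1, the interleukin-1 receptor, was at 8.29 and 8.34 in leukemic against 6.30 and 6.42 in normal mice (1.95 ± 0.08, adjusted p = 0.0219). With only the 4 HSC arrays fitted, and with the replicate block, 0 genes passed in this comparison, so Il1r1 passed in neither. Il6st, the gp130 chain shared by IL-6 type cytokines, had 0.91 ± 0.29 (adjusted p = 0.292). In KSL 0 passed, with Il1r1 at -0.34 ± 0.08 and Epor, the erythropoietin receptor, at -1.12 ± 0.29 (adjusted p = 0.418 and 0.449). In leukemic mice Epor (2.70 ± 0.29) and Il1r1 (0.48 ± 0.08) were higher in HSC than in KSL, and Il7r, at the floor on both HSC arrays, was at least 7.71-fold lower (adjusted p 0.0195 to 0.0495, 3 of 10 against 5.86% of all genes). In normal mice 2 of 10 passed, against 1.8% of all genes, and both were lower in HSC. Il1r1 had -1.81 ± 0.08 (adjusted p = 0.00865). Il7r was at 3.69 and, at the floor, 3.32 in normal-mouse HSC, against 7.55 and 7.50 in normal-mouse KSL (adjusted p = 0.0204), and no fold is given because of the floor.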

How the data were processed

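Messenger RNA was measured on 8 Affymetrix mouse arrays, 2 per group. The authors deposited 1 table of log2 values for 45101 probe sets, and the submitters' processing notes name RMA, with no version. Whether the floor at 10.0 on the linear scale came with that step is not given in the sources used here. Between 14.9% and 15.8% of values per array were at the floor (tolerance 1e-06). Signal over background, not depth, limits array values.

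The 8 columns matched the 8 samples, and groups came from the titles and the disease state labels. Titles of leukemic-mouse KSL samples name both kinds of mouse, and the disease state decided their group. The series' text names the Nugen Ovation kit and the labelling protocol the standard Affymetrix one, so the amplification is not settled. Platform annotation gave 34945 probe sets 1 symbol, 932 several and 9160 none, and 64 were controls. Of the 34945, 34741 were found by gene ID in RefSeq (GRCm38.p6).

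Values were fitted as deposited with limma 3.58.1 in R 4.3.3 (lmFit, eBayes, 4 residual degrees of freedom, two-sided, Benjamini-Hochberg over 18193 genes, no filter on dim genes). Estimates of difference were checked on simulated data with equal spread in all groups, which does not test p-values under unequal spreads. Errors after a difference are standard errors. An exact permutation test of 2 against 2 cannot go below p = 0.333 and was not used. One spread was fitted over all groups, although the median SD between replicates was 0.208 and 0.196 in HSC and 0.0940 and 0.114 in KSL of leukemic and normal mice. Members and lists were chosen with earlier results of these data known. All members are named. From each list, genes that passed in a comparison and the 2 with the smallest p in HSC and in KSL are named, and up to 3 like genes per member. Marker genes named beside a result were chosen after their values were seen. Other steps used matplotlib 3.10.9, numpy 2.4.6 and pandas 2.3.3 under Python 3.11.15. Alternatives left out each array, added a replicate block, array weights or a term for male arrays, or changed the scaling, the filter, the probe set rule or the arrays in the fit.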

Additional observations from a re-analysis of the deposited data

Results flagged for a closer look

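For 4 genes named above, both leukemic arrays lay on one side of the normal ones in HSC and on the other side in KSL. For Csf1r the HSC difference minus the KSL difference was 2.42 ± 1.07 (adjusted p = 0.61 in limma), and its second probe set gave 0.91 ± 0.16 (adjusted p = 0.295 over all probe sets). The last of its probe sets gave 0.095 ± 0.52 (adjusted p = 1), and the 2.42 ran from 1.29 without replicate 2 to 3.55 without replicate 1 of normal-mouse HSC. For Irf8 it was 2.47 ± 0.33 (adjusted p = 0.211). For Il1r1 it was 2.29 ± 0.12 (adjusted p = 0.0578), and for Pik3cd, which lay the other way, -1.12 ± 0.27 (adjusted p = 0.371). None passed over all genes. The pattern of HSC above and KSL below was met by 3.26% of all genes.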

How the results depend on the processing

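Of 820 alternative values for the 42 differences of the 7 receptor genes, 782 kept their direction and their side of the threshold, 18 passed where the value reported did not, and 20 changed sign, all from differences of 0.41 or less and none passing. The 18 were Csf1r or Csf2rb. In HSC against KSL in normal mice, 2 members passed after arrays were shifted to a common median, with genes at the floor anywhere left out, without the lowest 40% of genes and with the mean of a gene's probe sets, and 0 to 1 with an array left out. In leukemic mice these counts were 1, 1, 1 and 2, and 0 to 1. Filters test fewer genes, and the cause of the other changes was not tested. The member counts of these settings stand without the share of all genes passing under the same setting, and are not read against it. In HSC of leukemic against normal mice, 0 to 1 passed with an array left out. Csf2ra in HSC changed to 0.040 with a common median and 0.023 with cyclic loess, and its average to -0.014 with the term for male arrays or without those arrays. Csf2rb2 in HSC changed to -0.044 and -0.36 with these last 2 settings, and Csf1r in KSL to 0.17 with the term. With an array left out, HSC differences ran from -0.13 to 0.11 for Csf2ra, -0.36 to 0.57 for Csf2rb2 and -0.16 to 0.33 for Il3ra. The average of Csf3r ran from -0.17 to 0.24, the Il3ra difference between gates from -0.84 to 0.0094, and HSC against KSL in normal mice from -0.39 to 0.54 for Csf2rb2 and -0.46 to 0.030 for Il3ra. In these fits the lone array was assumed to vary like other groups.

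Counts over all genes moved more. They were 18 for HSC (0 to 257 over all alternatives), 8 for KSL (0 to 125), 15 for the average (0 to 144), 1 for the difference between gates (0 to 68), 1067 for HSC against KSL in leukemic mice (0 to 1316) and 328 in normal mice (0 to 546). Same-numbered arrays correlated between -0.04 and 0.09 in their deviations from group means, which neither pairs them nor excludes that the gates shared mice. Replicate 1 of both normal groups had the male pattern and replicate 2 did not. The main fits treated the arrays as unpaired. With the replicate block, 0 genes passed for HSC, KSL, the average and the difference between gates, 401 and 19 for HSC against KSL of leukemic and of normal mice, and 0 members in each.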
